A study of Mus musculus with 12 samples.

Results

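Chromatin accessibility was examined at 10 genes of the secondary (specific) and tertiary (gelatinase) granules of neutrophils and of the neutrophil cytosol and surface: Mmp8, Mmp9, Mmp25, Camp, Ngp, Ltf, Lcn2, S100a8, S100a9 and Cd177. The genes were taken by name, 10 of 21900 protein-coding genes of the annotation. Their regions were those assigned to them in the authors' deposited tables and the called peaks within 10 kb of the gene body, which gave 29 of the 73147 regions of the series. The measurements were ATAC-seq, in which a transposase inserts adapters where DNA is accessible, on C57BL6 mouse granulocyte-monocyte progenitors from bone marrow that carry ER-HOXA9, an estrogen receptor fusion of a leukaemia-associated homeobox protein. All groups, controls included, were cultured with stem cell factor and 0.5 uM beta-estradiol, the ligand of the fusion. There were 6 groups of 2 libraries each, which the series calls biological replicates.

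The groups were Day0, untreated cells at the start (day 0), and 5 groups sampled at day 2. Vehicle received DMSO. LSD1i received 200 nM GSK-LSD1, which inhibits LSD1, an enzyme that removes methyl groups from histones. 6MP received 5 uM mercaptopurine, a purine analogue, and CER received 5 uM cerulenin, an inhibitor of fatty acid synthase. Combo received all 3 agents at these doses. The series addresses whether epigenetic and metabolic treatments together change the differentiation block of these cells, and the granule genes are a late part of that programme.

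Neutrophil granules are filled in the order in which their proteins are made. Primary granule proteins appear in promyelocytes, specific granule proteins such as lactoferrin, lipocalin-2 and cathelicidin in myelocytes, and gelatinase granule proteins in later cells. Transcription of specific granule genes depends on C/EBP family factors, and LSD1 acts as a corepressor with GFI1 and GFI1B at myeloid genes.

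Signal is given as the fragment pileup at the highest summit of a region over the library background, relative to the median of the 33367 regions called in all 12 libraries of the same library, so that 1 is a typical common region. A region is called opened or closed where its log2 signal differed between groups with a limma adjusted p of 0.05 or less. In bulk libraries, more cells with an open site and a site more open in each cell cannot be told apart. The median common region stood 28.3 to 42.7 times over background in 10 libraries, 16.9 times in 6MP replicate 1 and 23.0 times in CER replicate 2, so these last 2 had the lowest enrichment. The 2 Combo libraries had the highest, 35.9 and 42.7 times. Background depth was 2.44 to 4.55 fragments per position. Of 8 primary granule genes with a start site in the promoter table, 7 had a start-site region called in at least 1 library, Mpo among them and Elane not. This is a looser measure than a call in all 12 libraries. Such a region was called at 6 of 9 erythroid and megakaryocyte markers (not at Hba-a1, Alas2 and Gp1bb) and at 4 of 11 lymphoid markers, with Pax5, Cd3e and Rag1 among the 7 without.

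A region within 1 kb of the start site was called in all 12 libraries at 3 of the 10 genes, Mmp8, Camp and Lcn2. At Ngp it was called in 2 libraries and at S100a8 in 3, and at Mmp25, Ltf, S100a9 and Cd177 in none. Mmp9 had no entry in the promoter table, so the outer edge of the gene body stood in for its start site. No region within 1 kb of that edge was called, and other start sites of Mmp9 were not examined. The 250 bases before the start sites of the first 3 are shown because the results turn on them, with Ngp as the contrast of a granule gene whose start site was mostly uncalled. The sequences are from RefSeq (build GRCm38.p6, which is mm10), 5′ to 3′ on the strand of the gene. They cover chr9:7558179-7558428 (plus strand, Mmp8), chr9:109849457-109849706 (minus strand, Camp), chr2:32387740-32387989 (minus strand, Lcn2) and chr9:110419558-110419807 (plus strand, Ngp). Capitals mark matches to 7 motifs searched on both strands, and a match on the opposite strand reads as its reverse complement.
Mmp8: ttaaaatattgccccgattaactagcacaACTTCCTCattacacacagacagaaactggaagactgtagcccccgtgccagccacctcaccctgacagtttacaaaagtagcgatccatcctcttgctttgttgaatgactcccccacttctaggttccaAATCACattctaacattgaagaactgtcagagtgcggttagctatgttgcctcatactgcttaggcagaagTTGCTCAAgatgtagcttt
Camp: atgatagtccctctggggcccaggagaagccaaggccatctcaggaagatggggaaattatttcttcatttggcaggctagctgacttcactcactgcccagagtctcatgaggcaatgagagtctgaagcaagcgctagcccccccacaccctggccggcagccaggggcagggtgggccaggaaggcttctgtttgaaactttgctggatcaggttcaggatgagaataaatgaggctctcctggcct
Lcn2: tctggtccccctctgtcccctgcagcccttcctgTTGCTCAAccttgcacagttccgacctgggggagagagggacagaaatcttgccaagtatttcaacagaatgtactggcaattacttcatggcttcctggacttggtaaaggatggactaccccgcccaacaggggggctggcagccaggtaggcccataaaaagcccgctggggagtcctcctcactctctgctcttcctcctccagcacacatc
Ngp: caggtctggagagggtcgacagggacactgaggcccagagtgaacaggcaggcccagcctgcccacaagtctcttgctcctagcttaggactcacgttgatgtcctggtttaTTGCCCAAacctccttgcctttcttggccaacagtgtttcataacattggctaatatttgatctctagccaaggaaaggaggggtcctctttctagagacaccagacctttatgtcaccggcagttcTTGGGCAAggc

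The search covered 300 bases, from 250 before to 50 after the start. The C/EBP motif was written TTGCNNAA, that of PU.1 GAGGAAGT and that of HOXA9 TGATTTAT. Those of GFI1, GATA, RUNX and AP-1 factors are spelled out where their matches are given. Of the 10 genes, 9 had a promoter in the table. TTGCNNAA was found in 5 of these 9 (Mmp8, Ngp, Ltf, Lcn2 and S100a9) and in 10.8% of 32817 promoters. In Mmp8 it lay 19 to 12 bases before the start, in Lcn2 216 to 209, and in Ngp it was present at 138 to 131 and, on the opposite strand, at 11 to 4. The GFI1 motif AATCAC was found in Mmp8, Ltf and S100a8 and in 10.4% of all promoters. Its Mmp8 match lay 90 to 85 bases before the start, and a further match on the opposite strand lay after the start, outside the bases shown. GAGGAAGT was found in Mmp8, on the opposite strand 221 to 214 bases before the start, and in S100a8, against 3.2% of all promoters. The GATA motif, AGATAA, was found in Ltf and S100a9 (11.2% of all promoters). No member promoter held the RUNX motif TGTGGTT, present in 5.27% of all promoters, the AP-1 motif TGANTCA, present in 7.81%, or TGATTTAT, present in 0.978%. Camp held none of the 7. The 9 promoters had a median of 4 CpG dinucleotides, against 7 over all promoters, with Mmp25 the highest at 18.

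**Figure D1:**
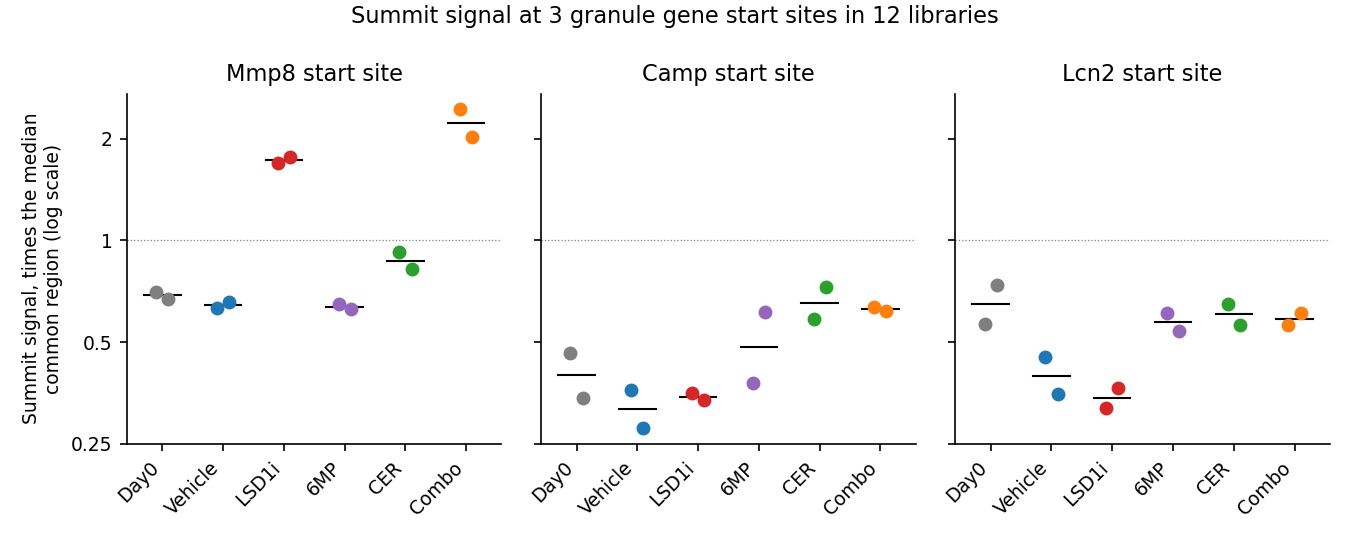
Summit signal at the start-site regions of Mmp8, Camp and Lcn2 (vertical axis, times the median common region, log scale) in the 6 groups, each point a library and each line the geometric mean of 2 libraries. At Mmp8 the 4 libraries with LSD1 inhibitor lie at 1.69 to 2.44 and the other 8 at 0.625 to 0.923, while at Camp and Lcn2 the LSD1i libraries lie beside the Vehicle ones.

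Mmp8 encodes neutrophil collagenase, a matrix metalloproteinase of the specific granules. Its start-site region (chr9:7556428-7558986) was the only tested region of the 10 genes that limma called opened both with LSD1 inhibitor alone and in the combination. The signal was 0.705 and 0.671 in Day0, 0.632 and 0.657 in Vehicle, 0.649 and 0.625 in 6MP and 0.923 and 0.82 in CER. It was 1.69 and 1.77 in LSD1i, and 2.44 and 2.02 in Combo. All 4 libraries with LSD1 inhibitor lay above all 8 others, from below a typical common region to above it. The fragments behind these values were 84 and 92 at the summit in Vehicle, 196 and 243 in LSD1i, and 391 and 332 in Combo.

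Against Vehicle, the Mmp8 start site was 2.69-fold higher in LSD1i (log2 difference 1.43 ± 0.15, limma adjusted p = 3.85e-07) and 3.45-fold higher in Combo (1.79 ± 0.15, limma adjusted p = 4.32e-09). Each value after ± is limma's SE. Its spread is estimated over all libraries of the fit together with a prior variance, not from the 2 groups compared alone. The CER libraries were 1.35-fold above Vehicle (0.43 ± 0.15, limma adjusted p = 0.213), with no overlap, and the 6MP libraries overlapped Vehicle (-0.02 ± 0.16, limma adjusted p = 1.0). Combo stood above LSD1i by 0.36 ± 0.15 (limma adjusted p = 0.37), without overlap but short of the test. Over the 4 libraries with LSD1 inhibitor against the 6 of Vehicle, 6MP and CER, the difference was 1.47 ± 0.10 (limma adjusted p = 2.2e-12). The LSD1i call was lost when signal was scaled by depth alone (1.27 ± 0.41, limma adjusted p = 0.178) or averaged over the summits of the region (1.86 ± 0.44, limma adjusted p = 0.0549), while the Combo call held under all 12 alternatives.

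In each of the 12 libraries the highest summit of the Mmp8 start-site region lay 52 to 101 bases before the start site. Counted from the start, it lay at -63 and -58 in LSD1i and at -68 and -52 in Combo. These positions are nearer the start than the AATCAC match, which lies 90 to 85 bases before it. Libraries with and without LSD1 inhibitor overlapped in the position of this summit and differed in its height. In the authors' deposited table for LSD1i, the Mmp8 promoter stood at a log2 fold of +1.12 (10.52 against 9.40 log2 normalised reads, FDR 2.26e-12). The authors' deposited table for Combo gave the same promoter +1.85 (11.14 against 9.29, FDR 1.39e-20).

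**Figure D2:**
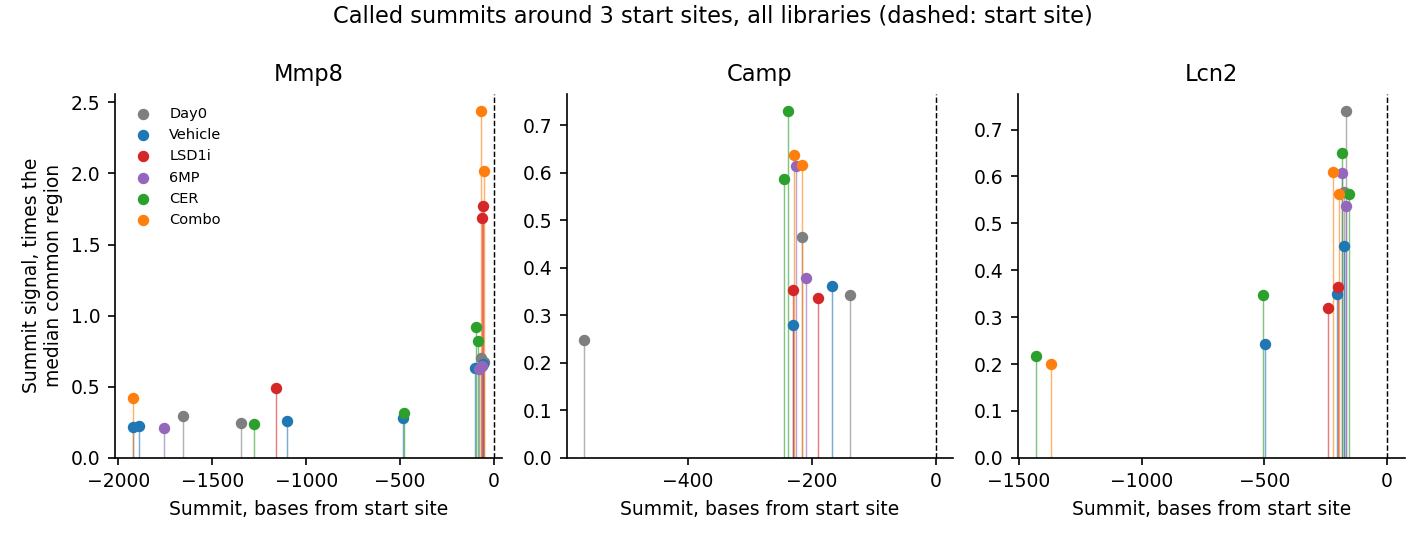
Every called summit around the start sites of Mmp8, Camp and Lcn2, by distance from the start site in bases (horizontal axis, dashed line at 0) and by signal (vertical axis, times the median common region), coloured by group. The highest summits gather 52 to 101 bases before Mmp8, 139 to 245 before Camp and 157 to 240 before Lcn2, and only at Mmp8 are the libraries with LSD1 inhibitor set apart in height.

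There were 6 other regions at Mmp8. A region 9085 bases into the gene (chr9:7567045-7568125) had a signal of 1.10 and 1.37 in Day0, 1.17 and 1.06 in Vehicle, 1.28 and 1.48 in 6MP, 1.08 and 1.36 in LSD1i, 1.52 and 1.70 in CER and 1.57 and 1.57 in Combo. It opened in Combo (0.50 ± 0.15, limma adjusted p = 0.037) and stood at 0.53 ± 0.15 in CER (limma adjusted p = 0.107) and 0.12 ± 0.15 in LSD1i (limma adjusted p = 0.68). The 6MP, CER and Combo libraries thus all lay above Vehicle, and LSD1i and Day0 overlapped it. This region was higher than the start site in the 8 libraries without LSD1 inhibitor and lower than it in the other 4. The Combo call at this region was lost under 7 alternatives and kept under 5. It was lost with scaling by depth (0.72 ± 0.43, limma adjusted p = 0.672) and averaged summits (0.49 ± 0.17, limma adjusted p = 0.139). A constant prior variance (0.50 ± 0.18, limma adjusted p = 0.131) and leaving out any 1 of the 4 libraries compared also lost it.

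Downstream of Mmp8, 14429 bases from its start, a region (chr9:7571962-7573402) covered the start site of Mmp27, a neighbouring metalloproteinase gene. Its signal was 0.729 and 0.707 in Vehicle, 0.836 and 0.985 in LSD1i, 0.804 and 0.921 in CER and 1.18 and 1.16 in Combo. The 2 Combo libraries were the highest of all 12. The region opened in Combo (0.70 ± 0.18, limma adjusted p = 0.0092) and stood at 0.34 ± 0.18 in LSD1i (limma adjusted p = 0.275). The Combo call was lost under 4 of 12 alternatives, namely scaling by depth, averaged summits and leaving out either Combo library.

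Upstream of Mmp8, a region 4554 bases before the start (chr9:7553675-7554626) was called in 10 libraries, at 0.263 and 0.329 in Vehicle, 0.491 and 0.460 in LSD1i and 0.569 in Combo replicate 1. No peak was called there in Combo replicate 2 or Day0 replicate 2. Its difference in LSD1i was 0.69 ± 0.27 (limma adjusted p = 0.131). In the authors' deposited table for Combo, which rests on read counts rather than on peak calls in each library, it stood at +0.93 (FDR 0.000488). A weaker region 14968 bases before the start (chr9:7543139-7543732) was called in LSD1i replicate 1 and both Combo libraries and nowhere else, with 13, 23 and 17 fragments. The authors' deposited table for Combo listed it at +1.56 (FDR 0.000722). The region 6281 bases before the start was called in Combo replicate 1 alone, and the one 19764 bases after it in 10 libraries at 0.107 to 0.216.

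Mmp9 encodes gelatinase B, the enzyme that names the gelatinase granules. Mmp9 had no entry in the promoter table, so the outer edge of its gene body was taken as its start. No region within 1 kb of that edge was called in any library, and other start sites of Mmp9 were not examined. Distances at Mmp9 are counted from this edge. The region 4220 bases upstream (chr2:164935657-164936346) was called at 0.362 and 0.350 in LSD1i, at 0.369 and 0.439 in Combo, at 0.214 in Vehicle replicate 2 and at 0.252 in CER replicate 1, and not in the other 6 libraries. The 4 libraries with LSD1 inhibitor were the highest of the 6 with a peak, and limma could not be fitted against Vehicle because Vehicle replicate 1 had none. In the authors' deposited table this region stood at +0.57 for LSD1i (FDR 0.0443), and in the authors' deposited table for Combo at +1.21 (FDR 4.81e-05).

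Inside Mmp9, a region 2751 bases after the start had a signal of 1.20 and 1.20 in Vehicle, 1.47 and 1.31 in LSD1i and 1.58 and 1.71 in Combo. The 6MP libraries spanned 1.04 to 1.64 and CER 1.29 to 1.66, so the groups overlapped, and its Combo difference was 0.45 ± 0.17 (limma adjusted p = 0.094). With the letter of the library names as a block it passed (0.45 ± 0.15, limma adjusted p = 0.0328). A region 7733 bases after the edge taken as the start was called in LSD1i replicate 1 and both Combo libraries and in no other library, with 44, 55 and 56 fragments. Whether it lies at another start site of Mmp9 was not examined. The other regions of the Mmp9 window, 8991 bases before and 12992 bases after the start, were called in all libraries and passed no comparison. A region 21360 bases downstream (chr2:164960437-164962273), at the start site of Slc12a5, a neuronal chloride transporter gene, was at 0.644 to 0.774 with LSD1 inhibitor and 0.736 to 1.13 in Vehicle, 6MP and CER. It closed in the pooled comparison of libraries with LSD1 inhibitor (-0.32 ± 0.11, limma adjusted p = 0.036), a call lost under 9 of 18 alternatives.

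Mmp25 encodes a membrane-anchored metalloproteinase of neutrophils. Its 1 region called in all libraries, 14861 bases into the gene, ranged from 0.500 to 0.716, and LSD1i (0.716 and 0.693) overlapped 6MP replicate 1 (0.716). The difference from Vehicle was 0.33 ± 0.21 in LSD1i (limma adjusted p = 0.382). A weak region 9306 bases upstream of Mmp25 was called in all 4 libraries with LSD1 inhibitor, at 0.156 to 0.212 with 22 to 33 fragments, and in Day0 replicate 1 at 0.116. Of the 2 remaining regions, 1 was called in LSD1i replicate 2, CER replicate 2 and Combo replicate 2 and 1 in Day0 replicate 1.

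**Figure D3:**
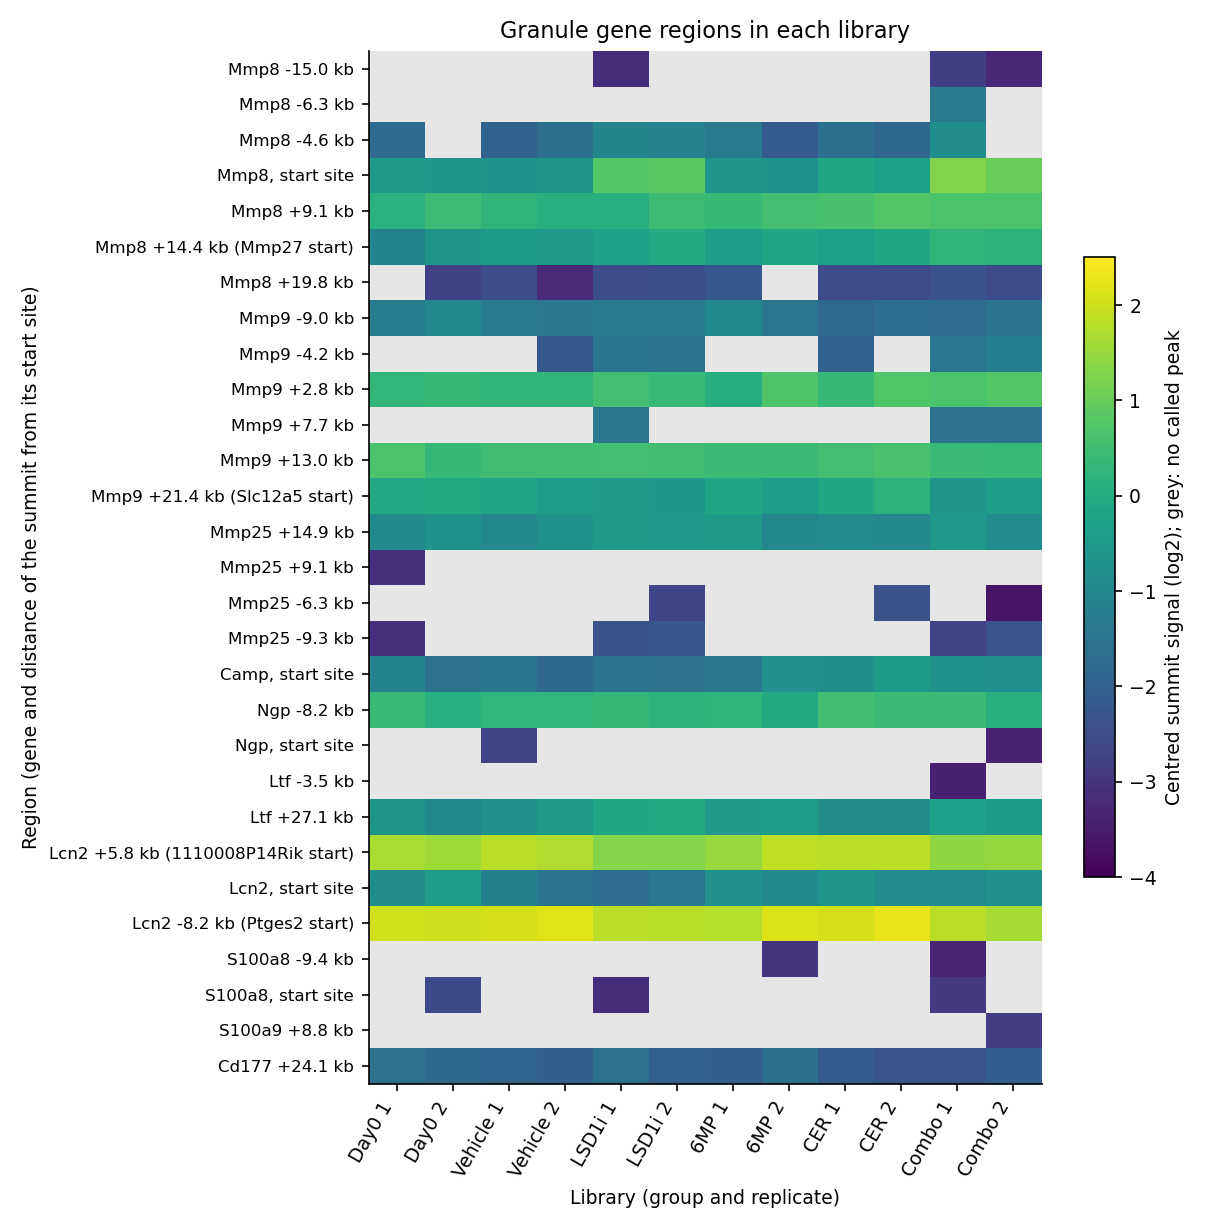
Centred log2 summit signal (colour) of the 29 regions (rows, named by gene and distance of the summit from the start site) in each of the 12 libraries (columns), with grey where no peak was called. The Mmp8 start site is brighter in the 4 libraries with LSD1 inhibitor. Of the 29 rows, 5 have colour only in those libraries, a pattern whose share over all regions was not counted. Only 2 of these rows have colour in 2 or more of those libraries, against 4.18% of all regions, and 1 of the 2 was listed through the Combo table.

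Camp encodes the cathelicidin antimicrobial peptide of the specific granules. Its start-site region (chr9:109849305-109850171) had another order of groups than that of Mmp8. The signal was 0.465 and 0.342 in Day0, 0.361 and 0.279 in Vehicle, 0.353 and 0.336 in LSD1i and 0.378 and 0.615 in 6MP. It was 0.587 and 0.73 in CER and 0.637 and 0.616 in Combo. Both LSD1i values lay within the Vehicle range, both CER and both Combo values lay above every Day0, Vehicle and LSD1i library, and the 6MP libraries lay on either side.

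The Camp start site opened in Combo by 0.98 ± 0.25 (1.98-fold, limma adjusted p = 0.00964) and in CER by 1.05 ± 0.24 (2.07-fold, limma adjusted p = 0.0477). With LSD1 inhibitor alone the difference was 0.12 ± 0.25 (limma adjusted p = 0.812) and with 6MP 0.61 ± 0.24 (limma adjusted p = 0.831). Combo against LSD1i gave 0.86 ± 0.24 (limma adjusted p = 0.14). The counts were 39 to 48 fragments in Vehicle and 65 to 102 in CER and Combo. The CER call was lost under 8 of 12 alternatives, among them scaling by depth (0.75 ± 0.37, limma adjusted p = 0.816) and leaving out Vehicle replicate 2 or either CER library (limma adjusted p = 0.148 to 0.399). The Combo call was lost without Vehicle replicate 2 or either Combo library (limma adjusted p = 0.0752 to 0.0888) and with averaged summits (0.0769). In the authors' deposited table for Combo the Camp promoter stood at +1.12 (8.81 against 7.69, FDR 3.63e-06).

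Lcn2 encodes lipocalin-2, a siderophore-binding protein of the specific granules. Its start-site region (chr2:32387429-32389402) had a signal of 0.566 and 0.74 in Day0, 0.451 and 0.35 in Vehicle, 0.319 and 0.365 in LSD1i and 0.608 and 0.538 in 6MP. It was 0.65 and 0.562 in CER and 0.562 and 0.61 in Combo. Vehicle and LSD1i overlapped and were the lowest 4 libraries, and every 6MP, CER, Combo and Day0 library lay above them. No difference at Lcn2 passed the test. Against Vehicle the differences were 0.56 ± 0.22 in Combo (limma adjusted p = 0.116), 0.61 ± 0.22 in CER (0.213), 0.53 ± 0.22 in 6MP (0.853) and -0.22 ± 0.22 in LSD1i (0.599).

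Combo against LSD1i at the Lcn2 start site gave 0.78 ± 0.22 (limma adjusted p = 0.132). Between Day0 and Vehicle it was -0.70 ± 0.22 (limma adjusted p = 0.205), and with the letter of the library names as a block -0.77 ± 0.22 (limma adjusted p = 0.0349). The authors' deposited table for Combo gave the Lcn2 promoter +0.56 (FDR 0.0313), and the authors' deposited table for LSD1i gave it -0.52 (7.98 against 8.49, FDR 0.0152). The sign of these authors' values was that of the summit signal, where neither passed.

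The window of Lcn2 also held the start sites of Ptges2, a prostaglandin synthase gene, and of 1110008P14Rik, both among the strongest regions described here, at 3.15 to 4.88 and 2.47 to 3.66. At 1110008P14Rik (chr2:32381278-32382579) the libraries with LSD1 inhibitor had 2.47 to 2.80 and the other 8 had 2.81 to 3.66. It closed in the pooled comparison (-0.38 ± 0.10, limma adjusted p = 0.00548), as did Ptges2 (chr2:32395077-32396856, -0.32 ± 0.11, limma adjusted p = 0.0329). The Ptges2 call was lost under 10 of 18 alternatives and that at 1110008P14Rik under 1, scaling by depth. These regions are members by position only.

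Ltf encodes lactoferrin, the iron-binding protein of the specific granules, and Ngp encodes neutrophilic granule protein. No start-site region was called at Ltf. A region 27103 bases downstream of its start (chr9:111045852-111046746) had a signal of 0.594 and 0.714 in Vehicle, 0.914 and 0.956 in LSD1i and 0.800 and 0.732 in Combo. The LSD1i libraries were the highest of the 12, and Combo replicate 2 lay below 6MP replicate 2 (0.779). It opened in the pooled comparison (0.37 ± 0.12, limma adjusted p = 0.0214), a call lost under 6 of 18 alternatives, and stood at 0.52 ± 0.18 in LSD1i (limma adjusted p = 0.0879). The other Ltf region, 3485 bases upstream, was called in Combo replicate 1 alone with 15 fragments.

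At Ngp, the start-site region was called in Vehicle replicate 1 with 21 fragments and in Combo replicate 2 with 16. These are near the smallest pileups called, which were 10 to 14 fragments per library. A region 8201 bases upstream of Ngp was called in all libraries at 0.962 to 1.43 and passed no comparison.

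S100a8 and S100a9 encode the subunits of calprotectin, an abundant cytosolic protein complex of neutrophils. The S100a8 start site was called in Day0 replicate 2, LSD1i replicate 1 and Combo replicate 1, with 12, 13 and 21 fragments. A region 9352 bases upstream of it was called in 6MP replicate 2 and Combo replicate 1. S100a9 had a single region, 8754 bases downstream of its start, called in Combo replicate 2. At this depth the start sites of the calprotectin genes were at or under the limit of a called peak in every group, and an uncalled region is not a measured absence of fragments. Cd177 encodes a surface glycoprotein of neutrophils that is stored in specific granules. Its 1 region, 24066 bases from the start, was called in all libraries at 0.202 to 0.345 and passed no comparison.

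**Figure D4:**
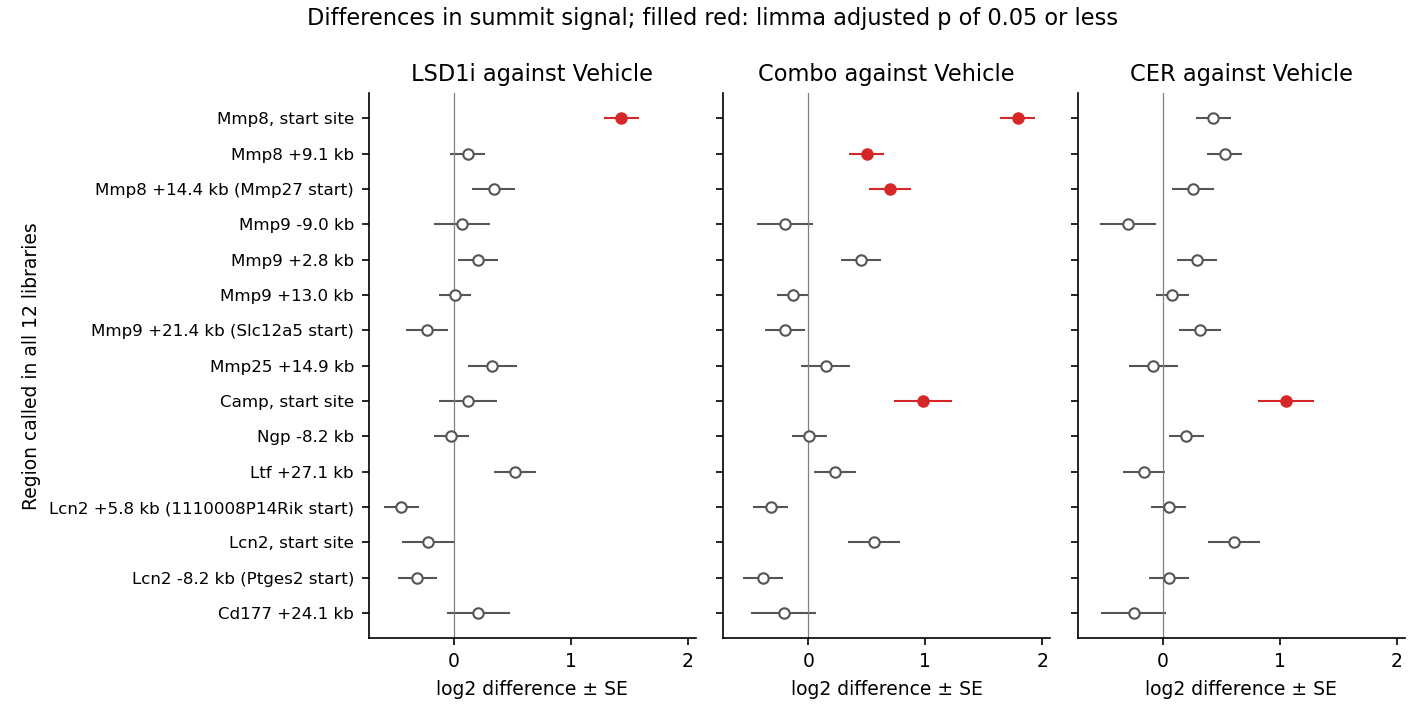
Log2 difference in summit signal from Vehicle with its SE (horizontal axis) at the 15 regions called in all 12 libraries (vertical axis), for LSD1i, Combo and CER. Filled red points have a limma adjusted p of 0.05 or less, which are the Mmp8 start site in LSD1i, the Mmp8, Mmp27 and Camp start sites and the Mmp8 gene body in Combo, and the Camp start site in CER.

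Counted over the 10 genes, limma called 1 of 17 tested regions opened and 0 closed in LSD1i against Vehicle, where it called 4.00% of all tested regions opened and 2.05% closed. In Combo against Vehicle it called 4 of 16 opened, 3 of them in the Mmp8 window, and 0 closed (4.97% and 3.11% of all regions). CER against Vehicle gave 1 of 17 opened and 0 closed (0.154% and 0.174%). The share opened in LSD1i was thus close to that of all regions. The 4 in Combo fell to 1 without either Combo library, to 2 without Vehicle replicate 2 and to 3 without Vehicle replicate 1, and the 1 in CER fell to 0 without 3 of its 4 libraries. Median differences of the tested regions were 0.12, 0.19 and 0.20 in LSD1i, Combo and CER, against -0.04, -0.09 and 0.03 over all regions.

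In 6MP against Vehicle limma called 0 of 16 regions in either direction, as it called 0% of all regions opened and 0% closed. Before adjustment 2 of 16 (12.5%) had a p under 0.05, against 5.07% of all regions. Combo against LSD1i gave 0 of 18, against 0.0893% opened and 0.0229% closed over all regions. At an unadjusted p under 0.05 there were 5 of 18 (27.8%), against 10.8% of all regions. The 5 were the start sites of Mmp8, Camp and Lcn2 and, in the Mmp8 window, the gene body region and the Mmp27 start site, all higher in Combo and 3 of them in 1 window, and they were named after their values were seen. Vehicle against Day0 gave 0 of 15, against 0.0710% opened and 0.0101% closed. Before adjustment 2 of 15 (13.3%) had a p under 0.05, near the 11.2% of all regions. Both Day0 libraries, and no others, carry a further letter in their names, so day and that letter cannot be told apart. In the pooled comparison 3 of 15 opened and 3 closed (9.88% and 14.8% of all regions). These 6 calls numbered 2 without LSD1i replicate 2 or Combo replicate 1 and 3 without LSD1i replicate 1 or Vehicle replicate 1.

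Among the 15 regions called in all libraries, all 4 libraries with LSD1 inhibitor lay above the other 8 at 1, the Mmp8 start site, and below them at 1, the 1110008P14Rik start site. Over all such regions these patterns held at 5.12% and 5.72%. Of the 29 regions, 2 were called in 2 or more libraries with LSD1 inhibitor and in no other, at Mmp8 and Mmp9, against 4.18% of all regions. The Mmp8 region, 14968 bases upstream, lies outside the 10 kb window and is a member only because the Combo table lists it, so its part of this count was set by the choice of members. Within the windows the count was 1 of 28. The number of the 29 regions with a peak was 17 or 18 in each of the 8 libraries without LSD1 inhibitor, 22 and 20 in LSD1i and 25 and 23 in Combo. Among the 28 regions within the windows the latter were 21 and 20 in LSD1i and 24 and 22 in Combo. Over all regions these libraries held 56.9% to 72.2% without and 67.7% to 75.5% with LSD1 inhibitor. The part of this difference in the members' peak calls was not tested.

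Gene counts in the authors' tables were as follows, and they belong to the rule that chose the regions. In the authors' deposited table for LSD1i, 2 of the 10 genes had a region opened (Mmp8 and Mmp9), against 6.16% of protein-coding genes, and 1 had a region closed (Lcn2), against 41.7%. The authors' deposited table for Combo listed 4 with a region opened (Mmp8, Mmp9, Camp and Lcn2; 10.9% of genes) and 0 with a region closed (3.05%). None of the 10 was in the authors' deposited table for CER (0.479% of genes) or in the authors' deposited table of Vehicle and Day0 (1.89%).

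The start sites of Mmp8, Camp and Lcn2 varied differently over the 12 libraries. Pearson's r of centred signal was 0.24 between Mmp8 and Camp, -0.22 between Mmp8 and Lcn2 and 0.54 between Camp and Lcn2, as descriptions over 12 libraries whose centring they share. Among start sites of other genes, those most like Mmp8 over the 12 libraries were Mgst1 (r = 0.972), a microsomal glutathione transferase, Tarm1 (0.965), a myeloid immunoglobulin-like receptor, Rbm47 (0.96), an RNA-binding protein, Efna5 (0.939), an ephrin ligand, and Papln (0.936). On the log2 scale, Mmp8 differed from Vehicle by 1.43 in LSD1i and 1.79 in Combo. The same 2 differences were 1.44 and 2.00 at Mgst1, 1.65 and 1.95 at Tarm1 and 1.20 and 1.25 at Rbm47. They were 1.12 and 1.04 at Efna5 and 1.07 and 1.03 at Papln. These start sites were picked for their likeness to Mmp8 over the same libraries, so higher signal with LSD1 inhibitor follows from the choice.

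Further genes came from a list of 20, drawn up as late granule and secretory genes of neutrophils. Whether the product of each, Arg2 included, is held in granules or secreted was not examined. In LSD1i, limma called 3 of 47 of their regions opened and 1 closed (4.00% and 2.05% of all regions). Opened regions lay at Chil3, a chitinase-like protein (0.70 ± 0.21, limma adjusted p = 0.0366), at the start site of Anxa1, annexin A1 (0.50 ± 0.15, limma adjusted p = 0.0373), and at Arg2, an arginase (0.79 ± 0.24, limma adjusted p = 0.0433). The start site of Fcnb, a ficolin of granules, closed (-0.66 ± 0.18, limma adjusted p = 0.0258), at 0.379 and 0.358 in LSD1i against 0.534 and 0.636 in Vehicle and 0.538 and 0.689 in Combo. In Combo 5 of 49 regions opened and 1 closed (4.97% and 3.11% of all regions), with Arg2 at 1.58 ± 0.24 (limma adjusted p = 4.73e-05) and Chil3 at 1.15 ± 0.20 (limma adjusted p = 0.000355). Arg2 and Chil3 were also the 2 of 44 called in CER (1.07 ± 0.24 and 0.88 ± 0.20, limma adjusted p = 0.0392 and 0.0477). Both opened, where 0.154% of all regions opened in CER and 0.174% closed. With scaling by depth 0 regions of the series opened in CER, so neither call held under that scaling.

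Primary granule genes, a list of 10, had 0 of 33 regions opened and 1 closed in LSD1i (4.00% and 2.05% of all regions). The closed region lay at Cd63, a membrane protein of these granules (-0.62 ± 0.19, limma adjusted p = 0.0489). In Combo 2 of 33 opened and 2 closed (4.97% and 3.11% of all regions). The closed regions were both at Cd63 (-0.88 ± 0.19 and -0.56 ± 0.16, limma adjusted p = 0.00288 and 0.0256). The opened ones were at Mpo, myeloperoxidase, 0.59 ± 0.17 (limma adjusted p = 0.0287), and at Serpinb1a, an elastase inhibitor, 0.59 ± 0.14 (limma adjusted p = 0.00751). Summed over the start sites of the list, the signal was 9.89 to 10.1 in Vehicle, 7.11 to 7.47 in LSD1i and 7.93 to 9.40 in Combo.

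The counts for markers of other cell types stand against 4.00% opened and 2.05% closed over all regions in LSD1i, and 4.97% and 3.11% in Combo. Dendritic cell markers had 6 of 39 regions opened and 0 closed in LSD1i and 4 of 40 and 1 in Combo, and their summed start-site signal was 7.18 to 8.14 in Vehicle, 7.96 to 8.44 in LSD1i and 7.59 to 7.88 in Combo. Monocyte and macrophage markers had 0 of 29 called in LSD1i and 3 of 30 opened and 1 closed in Combo, with sums of 10.2 to 10.8 in Vehicle, 10.4 in both LSD1i libraries and 11.2 to 11.9 in Combo. Of the dendritic markers with a promoter entry, 5 of 8 had a start-site region called in at least 1 library (not Zbtb46, Xcr1 and Cd209a), and of the monocyte markers 8 of 8. Mast cell, basophil and eosinophil markers had 0 opened and 2 closed of 21 in LSD1i and 1 and 1 of 20 in Combo. The calls were 0 of 24 and 1 closed of 26 for erythroid and megakaryocyte markers, and 1 opened and 1 closed of 28 and of 30 for lymphoid markers. The part of other cell types in the values of the granule genes was not tested.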

How the data were processed

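MACS2 2.1.2, DiffBind, Bowtie2, Picard 2.18.26, SAMtools 1.9 and Trimmomatic 0.38 are named with the mm10 build in the submitters' processing notes, per which no order is stated. The parameters are not given in the sources used here. For each of the 12 libraries the authors deposited a peak list holding a score, the fold ratio at each summit, and −log10 of the p-value and q-value, with q at most 0.01. The authors also deposited comparison tables with log2 normalised reads, log2 folds, p-values and FDR, and other columns of annotation. The table for Vehicle against 6MP was not used here.

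Fragment pileup and background at each summit were solved from the fold ratio and p-value, with the pileup required to be a whole number. For 100% of summits a whole number gave back the listed p-value within 0.001 in log10. Read totals were not in the files, so depth is the smallest background of a library. Overlapping peaks were joined to 73147 regions, and table starts lie 1 base below peak starts. From each log2 signal the library's median over regions called in all 12 was subtracted. Regions called in every library of a comparison were tested with limma 3.58.1 (R 4.3.3), taking a prior variance that depends on mean signal over all 12 libraries, and Benjamini-Hochberg adjustment over all regions tested, at 0.05. The scripts were tested on simulated data. With 2 libraries against 2 an exact test cannot reach 0.05. The 10 members, the 8 gene lists (101 genes) and the comparisons were chosen with earlier results of these data known. Named were all members, regions called or listed, at most 4 genes per list by limma adjusted p in LSD1i and then Combo, and the 5 start sites most correlated with Mmp8. Alternatives were 2 other scalings, stricter peaks, joining over 200 bases, averaged summits, a constant prior variance, 2 blocks, other windows and leaving out each library. Promoters are from the RefSeq table, since no genome of this build was used here.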

Additional observations from a re-analysis of the deposited data

How the results depend on the processing

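Of the values at single regions under each alternative, 217 kept their direction and side of the threshold, 57 no longer passed and 2 changed sign. The 217 include differences that had not passed to begin with, such as Lcn2 in Combo, for which staying uncalled counted as kept. The 57 were all at differences that had passed. The share kept among called differences alone was therefore lower. The changes of sign were Camp in LSD1i, -0.04 with scaling by depth and -0.07 without Vehicle replicate 2 (-0.07 to 0.31 leaving out each library). The cause was not tested. Counts of called regions moved as follows. Scaling by depth gave 0 in LSD1i, 2 in Combo, 0 in CER and 1 in the pooled comparison. Averaged summits gave 0, 1, 0 and 2. Centring by intensity gave 2 in LSD1i (the Mmp8 and 1110008P14Rik start sites) and 0 in CER. In CER, peaks with −log10 q of 3 or more and a constant prior variance gave 0. The letter of the library names as a block also called the Mmp9 region 2751 bases after the start in Combo (5 regions in all) and gave 2 in CER and 1, Lcn2, in Vehicle against Day0. Windows of 50 kb either side gave 14 pooled calls and the gene body alone 1. Leaving out 1 library gave 0 in Vehicle against Day0, 6MP against Vehicle and Combo against LSD1i, 1 in LSD1i, 1 to 3 in Combo, 0 to 1 in CER and 2 to 7 pooled.

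Scaling by depth moved the median of all regions to -0.19 in LSD1i, 0.13 in Combo, -0.26 in CER, -0.46 in 6MP, 0.33 in Combo against LSD1i, and 0.19 in both Vehicle against Day0 and the pooled comparison. The opened share of all calls moved from 66.1% to 84.5% in LSD1i, from 61.5% to 97.2% in Combo and from 40.0% to 98.6% pooled. With the replicate number as a block the counts were unchanged at 0, 1, 4, 1, 0, 0 and 6 in the order Vehicle against Day0, LSD1i, Combo, CER, 6MP, Combo against LSD1i and pooled. The numbers are not stated to mark shared cultures, and same-numbered libraries deviated together with correlations of -0.344 to 0.246. At an FDR of 0.01 or less, 6 of the 9 listed regions of the authors' deposited tables remained. Regions of 10 to 25 fragments were near the limit of a called peak.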

Other observations

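Factors of granulocyte development, a list of 12, had 5 of 48 regions called opened by limma in LSD1i, at Gfi1b and Gfi1, and 5 closed, against 4.00% and 2.05% of all regions. A region of Gfi1b, which encodes a repressor that recruits LSD1, had a signal of 1.54 and 1.46 in Vehicle, 3.20 and 3.17 in LSD1i and 3.23 and 2.88 in Combo. Its difference was 1.08 ± 0.14 in LSD1i and 1.02 ± 0.14 in Combo (limma's SE, limma adjusted p = 8.18e-06 and 1.21e-05). A region of Gfi1, its close relative, stood at 0.271 and 0.329 in Vehicle, 0.716 and 0.803 in LSD1i and 0.513 and 0.75 in Combo (1.35 ± 0.23 in LSD1i, limma adjusted p = 0.000447).

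The start site of Runx1, a haematopoietic transcription factor, closed in LSD1i (-0.56 ± 0.15, limma adjusted p = 0.0184), from 2.68 and 2.91 in Vehicle to 1.94 and 1.85. A region of Cebpa, which encodes the C/EBP factor of early granulocyte development, closed as well (-0.47 ± 0.14, limma adjusted p = 0.0324), from 2.06 and 1.96 to 1.51 and 1.39. In Combo 5 of 49 regions of the list opened and 3 closed (4.97% and 3.11% of all regions), and in CER 0 of 48 were called. At the Mmp8 start site, by comparison, LSD1i stood at 1.69 and 1.77 against 0.632 and 0.657 in Vehicle.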
